A study of Mus musculus with 6 samples.

Results

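MHC class II molecules carry peptides from outside the cell to CD4+ T cells, and 7 of the mouse genes that make, load or switch on these molecules were followed in sorted LSK cells. The genes were picked by name from the deposited table of 54532 genes, with earlier results of these data known: H2-Aa, H2-Ab1 and H2-Eb1 (chains of the peptide receptor itself), Cd74 (the invariant chain), H2-DMa and H2-DMb1 (chains of the peptide loader H2-DM) and Ciita (the transactivator). All 7 were present in the table, and 6 passed the filter on low values, which asked for 1 FPKM or more on average across the 6 libraries. Ciita did not. FPKM is the number of fragments of a gene scaled by its length and by the size of the library.

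LSK cells are bone marrow cells that lack lineage markers and carry Sca1 and c-Kit, the fraction that holds haematopoietic stem cells and multipotent progenitors. Control cells (3 libraries) came from Myh9fl/fl;no cre littermates and Myh9-deficient cells (3 libraries) from Myh9fl/fl;Mx1-cre mice. All mice were C57BL/6, carried the floxed Myh9 alleles and received poly I:C at 5 mg/kg, so the controls saw the same inducer. The labels name 2 doses and the study's methods 3 for this model, begun when the mice were 5 to 6 weeks old. Cells were sorted 4 days after the first dose, 100000 per library, and the number of mice per library is not given in the sources used here. Poly I:C is a double-stranded RNA mimic that induces interferon, and the Mx1 promoter that drives the recombinase answers to interferon in many cell types, not in LSK cells alone. The libraries held 17571544 to 19894562 reads on genes. Correlations of log2 values were 0.991 to 0.993 within a group and 0.974 to 0.977 between groups. Myh9, the targeted gene, was at 23, 22.6 and 22 FPKM in control libraries, and the Myh9-deficient ones had 18.4, 20 and 17.7 FPKM. It fell by 0.26 on the log2 scale with an adjusted p of 0.00642, and the Myh9-deficient mean was 0.829 of the control mean. Most of the gene-level signal thus remained in the libraries labelled cKO. By real-time PCR the study reports efficient deletion in whole bone marrow at a later day, a measure of other cells than these libraries. The deleted part of the gene could not be read apart from the rest in these values, so the extent of deletion was not measured, and "Myh9-deficient" below follows the label. Of the markers that define the sort, Ly6a (Sca1) stood at 95.4 ± 1.87 and 89.5 ± 3.63 FPKM and Kit at 23.9 ± 0.454 and 21.5 ± 0.334 FPKM (mean ± SD, n = 3), and the progenitor marker Cd34 at 63.8 ± 0.557 and 66 ± 1.9 FPKM. Of the 7 LSK genes listed, 2 were called lower (Kit and Ptprc) and 2 higher. Flt3, a receptor of multipotent and lymphoid-primed progenitors, rose from 19.8 ± 0.78 to 30.1 ± 1.18 FPKM (adjusted p = 1.5e-04), and Procr, a marker of stem cells, from 2.8 ± 0.129 to 5.09 ± 0.691 FPKM (adjusted p = 0.00145). The part of a shift within the sorted fraction in the class II values was not tested.

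A classical class II molecule is a pair of an alpha and a beta chain. H2-Aa and H2-Ab1 encode the 2 chains of the I-A molecule, and H2-Eb1 encodes the beta chain of I-E, whose alpha chain gene is inactive in C57BL/6 mice. New pairs are held by the invariant chain, which keeps the groove closed and steers them to endosomes. There cathepsins trim the invariant chain to a short fragment, H2-DM trades that fragment for a peptide, and H2-DO, made of H2-Oa and H2-Ob, restrains H2-DM. CIITA binds no DNA by itself. It is recruited by RFX, CREB-family and NF-Y proteins to the X, X2 and Y boxes that lie just upstream of class II genes, and it is best known from dendritic cells, B cells, macrophages and cells exposed to interferon gamma.

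The upstream sequences are shown because these boxes are what class II genes have in common. RefSeq windows of 250 bases before the transcript start were matched for 8 class II genes and read on both strands. Cd74, Ciita and H2-Ab1 were not matched. The stretches below run 5′ to 3′ on the coding strand of build GRCm38.p6 and carry in capitals the 7 letters TGATTGG, a Y box core (ATTGG) with its 2 upstream bases. For H2-DMb1 and H2-Oa 30 bases are printed, since their stretches overlap annotated exons of another transcript start. The 7 letters begin 50 bases before the start of H2-Aa, 61 before H2-Eb1, 59 before H2-Ob, 92 before H2-DMb2, 63 before H2-DMb1 and 45 before H2-Oa, counted from the RefSeq start.
H2-Aa (chr17:34287859-34287918, minus strand): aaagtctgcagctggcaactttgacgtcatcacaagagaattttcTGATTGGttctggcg
H2-Eb1 (chr17:34305761-34305820, plus strand): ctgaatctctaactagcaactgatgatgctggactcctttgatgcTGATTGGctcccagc
H2-Ob (chr17:34238801-34238860, plus strand): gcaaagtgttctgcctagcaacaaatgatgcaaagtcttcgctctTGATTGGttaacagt
H2-DMb2 (chr17:34145112-34145171, plus strand): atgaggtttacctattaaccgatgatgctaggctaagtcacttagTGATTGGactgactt
H2-DMb1 (chr17:34153113-34153142, plus strand): ggctgattcactcagTGATTGGtctgacct
H2-Oa (chr17:34092319-34092348, plus strand): ctcagagaactgctcTGATTGGctgcttac

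The first 3 of these genes were higher in Myh9-deficient LSKs, H2-DMb2 was lower, and H2-DMb1 and H2-Oa did not pass the test, so the same letters stood before genes of every outcome. ATTGG or its complement CCAAT was present in 33.8% of 32851 windows, and TGATTGG or its complement, which contains ATTGG and was chosen after the sequences were seen, in 7.23%. The X2 core TGACG or CGTCA, present in 17.8% of windows, was found in the window of H2-Aa alone among these 6 genes. GATGATGC, also chosen after the sequences were seen and present on either strand in 0.575% of windows, stood before H2-Eb1, H2-DMb1 and H2-DMb2. The windows of H2-DMa begin at other starts, upstream of the deposited gene, and held no TGATTGG. A match is a description of letters and was not tested as a binding site.

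The 3 classical chains were higher in Myh9-deficient LSKs, the 2 scarcest of them by the largest folds. H2-Aa, the I-A alpha chain, was at 0.698, 0.757 and 0.5 FPKM in control and at 5.04, 5.44 and 5.79 FPKM in Myh9-deficient libraries. Its mean rose 8.33-fold, from 0.652 ± 0.134 to 5.43 ± 0.375 FPKM (SD, n = 3), on 18 to 26 reads in control and 177 to 202 reads in Myh9-deficient libraries. The log2 fold change on log2(FPKM + 1) was 1.96 (95% interval 1.76 to 2.16, adjusted p = 1.6e-05), a scale that understates the change of genes near 1 FPKM. H2-Eb1, the I-E beta chain, was at 0.552, 0.911 and 1.06 FPKM in control and at 6.27, 8.48 and 6.35 FPKM in Myh9-deficient libraries. It rose 8.38-fold in mean FPKM, with a log2 fold change of 2.13 (1.78 to 2.47, adjusted p = 9.6e-05), on 13 to 24 reads against 139 to 183 reads. In both genes the lowest Myh9-deficient library lay far above the highest control.

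H2-Ab1, the I-A beta chain, was the most abundant classical chain. Its level was 7.34, 7.94 and 8.37 FPKM in control and 27.9, 27.7 and 25.2 FPKM in Myh9-deficient libraries, with 229 to 263 and 769 to 855 reads. The mean rose 3.42-fold, from 7.88 ± 0.517 to 26.9 ± 1.47 FPKM, and the log2 fold change was 1.65 (1.51 to 1.79, adjusted p = 7.7e-06). The groups were well apart. Among the 11552 genes tested, ordered by log2 fold change from the largest rise, H2-Eb1 was at place 25, H2-Aa at place 36 and H2-Ab1 at place 54.

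Cd74, the invariant chain on chromosome 18, rose with them. Control libraries had 6.7, 6.32 and 6.39 FPKM and Myh9-deficient libraries 18.7, 18.2 and 17.9 FPKM. The mean went from 6.47 ± 0.205 to 18.3 ± 0.398 FPKM, a 2.82-fold rise with a log2 fold change of 1.37 (1.27 to 1.46, adjusted p = 3.5e-06). The 3 libraries of each group lay close together, and Cd74 was at place 83 by size of rise.

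The 2 chains of the peptide loader H2-DM did not move alike. H2-DMa, the alpha chain, was the most abundant of the 7 genes in both groups, at 39.1, 40.8 and 40.1 FPKM in control and 67.5, 68.3 and 65.4 FPKM in Myh9-deficient libraries. It rose 1.68-fold (log2 fold change 0.73, 0.66 to 0.80, adjusted p = 1.3e-05), with no overlap between the groups. H2-DMb1, a beta chain, was at 16.3, 15.2 and 18.3 FPKM in control and at 17.7, 18.7 and 17.4 FPKM in Myh9-deficient libraries, and the groups overlapped. Its log2 fold change was 0.11 (-0.05 to 0.27, adjusted p = 0.237), an interval that leaves out the rise of H2-DMa. Without control replicate 3, its highest control, the value for H2-DMb1 was 0.18 with an adjusted p of 0.0431.

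Ciita, which encodes the transactivator of the class II genes, was near the limit of detection in every library. It was at 0.0791, 0.0893 and 0.082 FPKM in control and at 0.0728, 0.0805 and 0.101 FPKM in Myh9-deficient libraries. These values rest on 15, 15 and 15 reads and on 13, 14 and 18 reads over a length of 9535 bases. The groups overlapped, and the ratio of summed reads per library size, Myh9-deficient over control, was 1.03 with a 95% exact interval of 0.669 to 1.6 for counting error only. A change smaller than this was not detectable at this depth. With no filter on low values the adjusted p was 0.974. The span of Ciita also overlaps that of Dexi on the other strand (mean 6.04 FPKM), and exons were not compared. How the counting assigned reads of the shared span is not given in the sources used here.

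**Figure D1:**
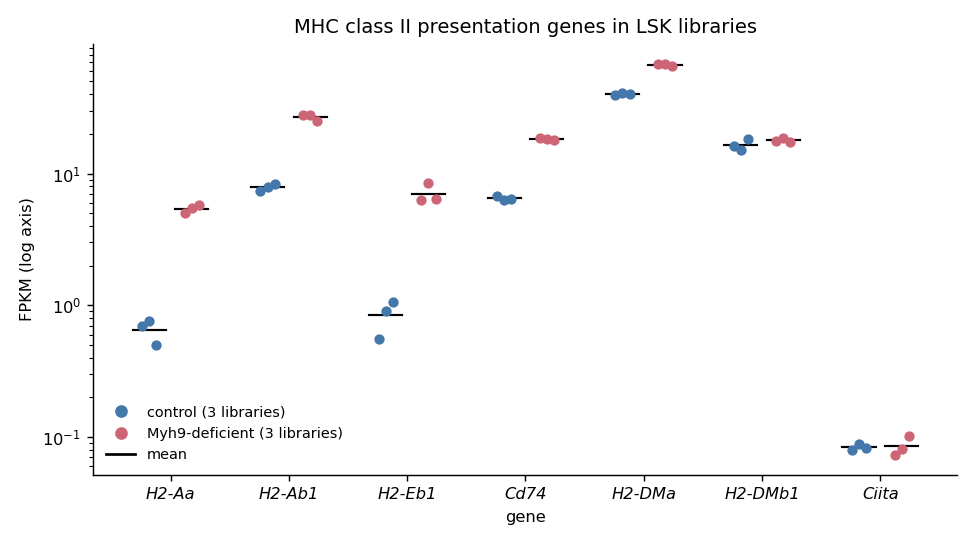
FPKM of the 7 class II presentation genes (log axis) in 3 control and 3 Myh9-deficient LSK libraries, with 1 point per library and a bar at the group mean. H2-Aa, H2-Ab1, H2-Eb1, Cd74 and H2-DMa have no overlap between the groups, while the points of H2-DMb1 and Ciita overlap.

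Of the 6 genes tested, 5 were called higher at an adjusted p below 0.05 and none lower, where 19.9% of all genes tested were called higher and 20.6% lower. All 5 had every Myh9-deficient library above every control, as had 25.5% of all genes. H2-Aa and H2-Eb1 averaged 0.652 and 0.84 FPKM in control. They passed the filter only through the Myh9-deficient libraries, where they are high, and the counts and the median in this paragraph include both. The study names more than 2-fold and p under 0.05 as its cut-offs. On the present fit of log2(FPKM + 1), with p unadjusted, these were passed upward by 4 members (H2-Aa, H2-Ab1, H2-Eb1 and Cd74). Of all genes tested, 1.43% passed them upward and 0.701% downward. The study's own test and gene set are not given in the sources used here, so its gene counts are not comparable with these shares. The median log2 fold change was 1.51 over the 6 genes and -0.0096 over all genes tested. The summed level of the 7 genes was 70.8 to 74.8 FPKM in control and 138 to 147 FPKM in Myh9-deficient libraries. In bulk RNA, more cells that express a gene and more RNA per cell cannot be told apart.

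Ordered by FPKM, control LSKs had most H2-DMa, then H2-DMb1, H2-Ab1, Cd74, H2-Eb1, H2-Aa and Ciita. In this order H2-Eb1 (0.84 ± 0.259 FPKM) and H2-Aa overlapped between libraries and the other neighbours did not. In Myh9-deficient LSKs H2-Ab1 and Cd74 stood above H2-DMb1 (17.9 ± 0.639 FPKM), with Cd74 and H2-DMb1 overlapping, and H2-Eb1 (7.03 ± 1.25 FPKM) remained above H2-Aa, now without overlap.

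The unequal rises can be read from ratios of FPKM within each library, in which library size cancels. The ratio of H2-Aa to H2-Ab1, the partner chains of I-A, was 0.095, 0.0954 and 0.0598 in control libraries. In the Myh9-deficient ones it was 0.181, 0.197 and 0.229, a log2 difference of 1.30. With FPKM + 1 in both terms this difference was 0.31, as H2-Aa is scarce in control. The ratio of Cd74 to H2-Ab1 was 0.913, 0.796 and 0.764 in control libraries and 0.669, 0.659 and 0.708 in the Myh9-deficient ones, a log2 difference of -0.28. The ratio of Cd74 to Ciita was 77.8 ± 6.99 and 220 ± 40.6, a log2 difference of 1.48, but its denominator is the handful of Ciita reads given above. The ratio of H2-DMa to the sum of both H2-DM beta chains was 1.4 ± 0.0506 and 3.07 ± 0.166, a log2 difference of 1.13. In each of the 4 ratios the groups did not overlap. The two-sided exact permutation test gave p = 0.1 for each, also after adjustment over the 4 ratios, which is the smallest p that 3 libraries against 3 allow, so none could pass a threshold of 0.05.

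**Figure D2:**
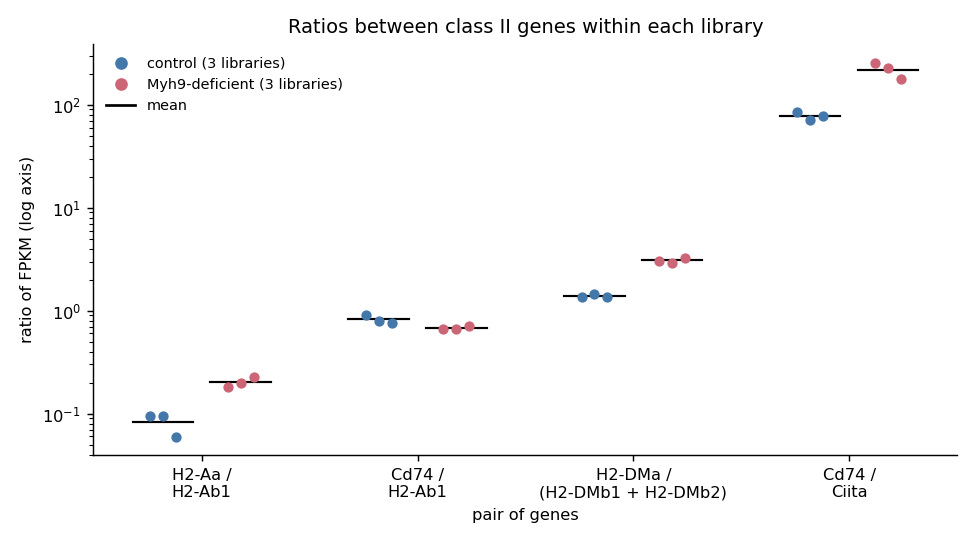
Ratios of FPKM between class II genes (log axis) within each of 3 control and 3 Myh9-deficient libraries, with 1 point per library and a bar at the group mean. The ratio of H2-Aa to H2-Ab1 averages 0.0834 in controls against 0.202 in cKO, that of H2-DMa to both beta chains 1.4 and 3.07, and that of Cd74 to H2-Ab1 0.824 and 0.679.

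Of the remaining class II chains, H2-DMb2 fell, H2-Ob rose and H2-Oa was not called. H2-DMb2, the other H2-DM beta chain gene, was at 12.2, 12.7 and 10.9 FPKM in control and at 4.53, 4.75 and 2.67 FPKM in Myh9-deficient libraries. The control mean was 3-fold the Myh9-deficient mean (log2 fold change -1.40, -1.81 to -1.0, adjusted p = 0.00111), and the groups did not overlap. H2-DMb2 gave 41.9 ± 4.13% of the summed H2-DM beta chain FPKM in control and 18 ± 4.07% in Myh9-deficient libraries, and the sum itself went from 28.5 ± 0.618 to 21.9 ± 1.66 FPKM. The longest coding transcripts of H2-DMb1 and H2-DMb2 were 94.6% identical over 1219 aligned bases, and 27.2% of the 50-base windows of H2-DMb1 were also present in H2-DMb2. The split of reads between these 2 genes is therefore uncertain, as the counting program and its treatment of shared reads are not given in the sources used here. No 50-base window of H2-Aa or H2-Eb1 was found in H2-Ab1, and none of H2-Eb1 in H2-Eb2.

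H2-Ob, the beta chain of the H2-DM inhibitor H2-DO, was at 2.76, 2.74 and 2.96 FPKM in control and at 6.33, 6.99 and 7.14 FPKM in Myh9-deficient libraries, with a log2 fold change of 1.03 (adjusted p = 4.8e-05). Its partner H2-Oa was at 14.9, 12.7 and 14.7 FPKM and at 14.8, 15.4 and 14.5 FPKM, with overlapping groups (log2 fold change 0.077, adjusted p = 0.388). The whole of H2-Oa overlaps BC051537 on the other strand, which was at 14.8 ± 0.387 and 7.88 ± 0.791 FPKM. Whether the exons of the pair overlap was not checked. Reads of overlapping exons cannot be told apart without strand, so the value of H2-Oa is uncertain. H2-Eb2 was under the filter at 0.356 and 0.309 FPKM, as was the pseudogene H2-Ea-ps at 0.125 and 0.104 FPKM.

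The class II chains lie side by side on chromosome 17 (mm10). The plus strand holds H2-DMa (34135182 to 34139101), H2-DMb2 (34143307 to 34151553), H2-DMb1 (34153072 to 34160230), H2-Ob (34238903 to 34245907), H2-Ab1 (34263209 to 34269418) and H2-Eb1 (34305877 to 34316199), and the minus strand holds H2-Aa (34282744 to 34287827). The span from H2-DMa to H2-Eb1 covers 181 kb and 15 genes, of which 11 were tested. The 4 tested genes in its middle serve class I presentation. Psmb9 and Psmb8, subunits of the immunoproteasome, had log2 fold changes of 0.058 and 0.026 and were not called. Tap1 and Tap2, which pair as the peptide pump of the endoplasmic reticulum, had log2 fold changes of -0.091 (adjusted p = 0.0273) and 0.27 (adjusted p = 0.00197). Brd2, a chromatin reader that lies between H2-Oa and H2-DMa, was at 44.5 ± 0.915 and 38.1 ± 0.618 FPKM. The rise was thus largest at the end of the span that holds H2-Ob, H2-Ab1, H2-Aa and H2-Eb1, and neighbouring genes differed in size and direction.

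**Figure D3:**
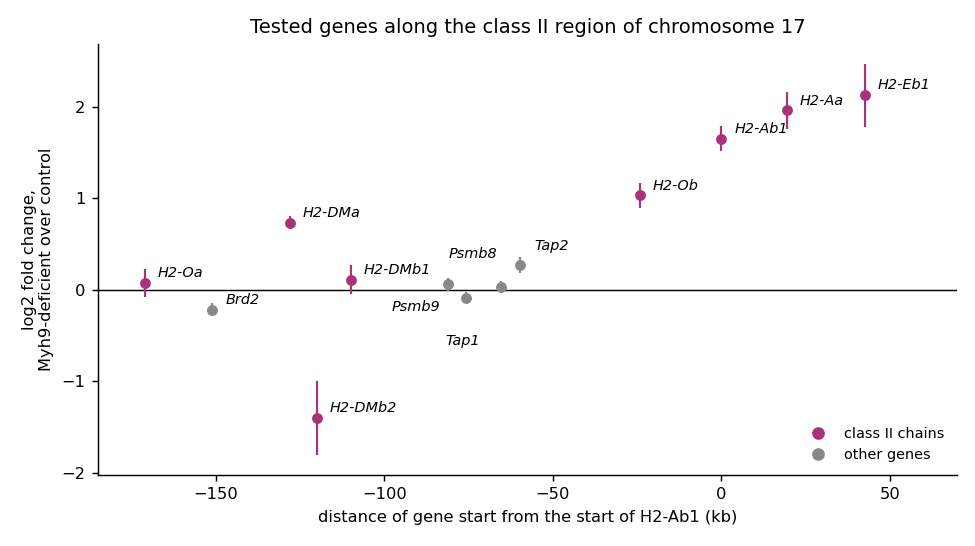
Log2 fold change on log2(FPKM + 1), Myh9-deficient over control, with its 95% interval, against distance of the gene start from the start of H2-Ab1 in kb, for the genes tested along the class II region. H2-Ob, H2-Ab1, H2-Aa and H2-Eb1 have values of 1.03 to 2.13, H2-DMb2 lies at -1.40, and the 4 class I genes in the middle lie between -0.091 and 0.27.

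Of the genes that lead to class II transcription or prepare its ligands, more were called lower than higher. In the 3 lists of other class II chains, antigen processing genes and transcription genes together, 28 of 33 genes were tested, 3 of them (10.7%) were higher and 15 (53.6%) lower, with 10 not called. Of all genes tested, 19.9% were called higher and 20.6% lower, the shares to set beside each list here and below. The 3 higher genes of these lists were H2-Ob, Socs1 and Ctsl. The 16 tested genes of the transcription list held 1 higher and 10 lower gene, with a median log2 fold change of -0.20. RFX binds the X box as a complex of 3 subunits. Rfx5 fell from 5.97 ± 0.265 to 4.69 ± 0.0238 FPKM, by 0.29 on the log2 scale (adjusted p = 0.00316). For Rfxank the log2 fold change was -0.12 (adjusted p = 0.417) and for Rfxap 0.061 (adjusted p = 0.338). Of the NF-Y subunits, which bind the Y box, Nfya fell by 0.31 on the log2 scale (adjusted p = 4.1e-04).

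Irf8, a transcription factor of monocyte, dendritic and B cell progenitors, fell most in this list. It was at 52.7, 51.5 and 52.1 FPKM in control and at 15.4, 14.8 and 13.3 FPKM in Myh9-deficient libraries (log2 fold change -1.78, adjusted p = 3.8e-06). Irf1, which acts on the Ciita promoter after interferon gamma, fell by 0.50 on the log2 scale (adjusted p = 3.8e-04). Spi1, which encodes the myeloid and B cell factor PU.1, fell by 0.34 (adjusted p = 1.8e-04), and Ifngr1, a chain of the interferon gamma receptor, fell by 0.24 (adjusted p = 7.4e-04). Socs1, a feedback inhibitor of cytokine signalling, was the gene of this list called higher, from 2.19 ± 0.24 to 3.35 ± 0.17 FPKM (adjusted p = 0.00399).

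Among 9 tested antigen processing genes, 1 was higher, 4 were lower and 4 were not called, with a median log2 fold change of 0.033. Ctss, the cathepsin that makes the last cuts in the invariant chain of many antigen-presenting cells, was at 32.9, 30.8 and 34.1 FPKM in control and at 33.4, 31.6 and 35.1 FPKM in Myh9-deficient libraries (log2 fold change 0.034, adjusted p = 0.638). Ctsl, which serves this step in thymic epithelium, rose slightly (log2 fold change 0.22, adjusted p = 0.0289). With no filter on low values the adjusted p of Ctsl was 0.0663. Ctsh, an aminopeptidase of lysosomes, fell from 9.92 ± 0.734 to 3.94 ± 0.184 FPKM (adjusted p = 4.1e-05), and Ctsb fell by 0.47 (adjusted p = 1.1e-04) and Ctsd by 0.086 (adjusted p = 0.0261) on the log2 scale. Ifi30, the thiol reductase that opens disulphide bonds of antigens, fell by 0.23 (adjusted p = 0.0163).

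Class I presentation genes show peptides of the cell's own proteins to CD8+ T cells. Of 13 tested, 2 (15.4%) were higher, 8 (61.5%) lower and 3 not called, with a median log2 fold change of -0.091. The share called higher was near the 19.9% of all genes tested, and the share called lower was above their 20.6%. The difference from the class II genes was not tested. H2-K1, a classical class I heavy chain, stood at 545 ± 5.86 FPKM in control and rose to 902 ± 9.17 FPKM, by 0.73 on the log2 scale (adjusted p = 3.8e-06). The next largest changes in this list were falls of the chaperones that load class I chains: Calr by 0.34 (adjusted p = 2.7e-04), Pdia3 by 0.32 (adjusted p = 1.6e-04) and Tapbp by 0.31 (adjusted p = 2.3e-04) on the log2 scale. The other classical heavy chain of this list, H2-D1, fell from 950 ± 21.6 to 809 ± 24.8 FPKM. H2-K1 and H2-D1 are related in sequence and may share reads. Of 6 genes of costimulation and related ligands, 3 were tested, and Pdcd1lg2 was higher, Icosl lower and Cd274 not called. The adjusted p of Icosl was 0.0439, and 0.109 with no filter on low values. Cd40, Cd80 and Cd86, which antigen-presenting cells use to activate T cells, were under the filter.

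**Figure D4:**
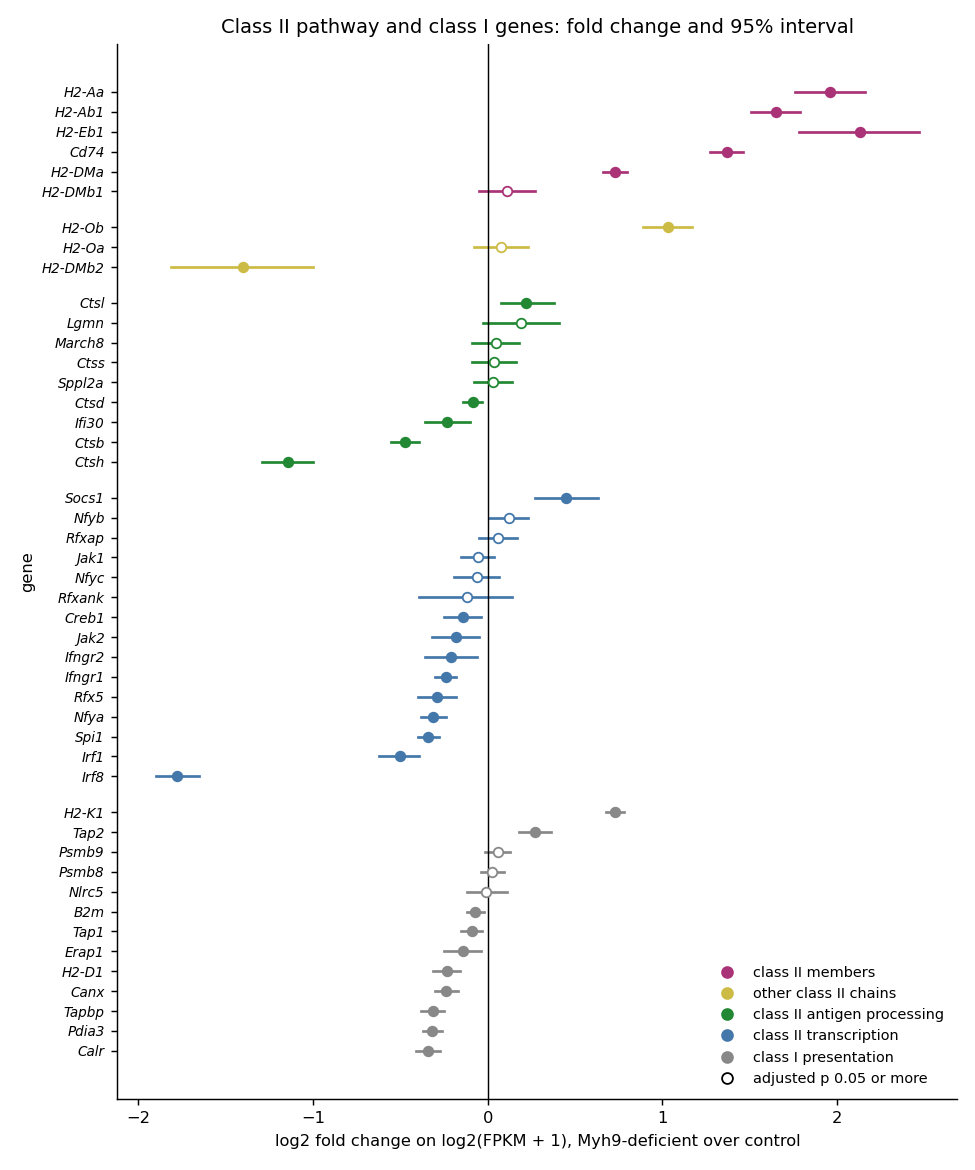
Log2 fold change on log2(FPKM + 1), Myh9-deficient over control, with 95% intervals for the tested class II members, other class II chains, antigen processing, transcription (all but 1) and class I genes. Filled points have an adjusted p below 0.05, and the 5 filled members lie to the right of 0, while most called transcription and class I genes lie to the left.

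Markers of dendritic cells, B cells and macrophages, which carry most class II, were looked at in the same libraries, as were those of plasma cells and T cells. Of 12 dendritic cell genes 1 passed the filter, Clec10a at 5.36 ± 0.54 and 5.22 ± 0.449 FPKM, and the summed level of the list was 8.44 to 8.76 FPKM in control and 8.19 to 9.15 FPKM in Myh9-deficient libraries. Batf3 was at 0 in every control library and at 0.0669 to 0.269 FPKM in Myh9-deficient ones, and Cd209a was at 0 in all Myh9-deficient libraries. Next in level, Ccr7 was at 0.974 ± 0.284 and 0.791 ± 0.017 FPKM and Itgax, which encodes CD11c, at 0.735 ± 0.11 and 0.483 ± 0.0414 FPKM. Below the filter, genes of the list differed in both directions. Fscn1 (0.322 ± 0.171 and 0.872 ± 0.0207 FPKM), Zbtb46 (0.297 ± 0.0995 and 0.55 ± 0.0326 FPKM) and Ccr9 (0.0993 ± 0.0401 and 0.233 ± 0.0469 FPKM) had every Myh9-deficient library above every control. Clec9a, a receptor of cross-presenting dendritic cells, had every one below (0.473 ± 0.0963 and 0.104 ± 0.0892 FPKM). With no filter on low values the adjusted p was 0.0215 for Fscn1, 0.0548 for Zbtb46, 0.0554 for Ccr9 and 0.0191 for Clec9a.

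The B cell list had 3 of 12 genes tested, 2 of them higher, and summed to 34.4 to 39.7 FPKM in control and 37 to 39.3 FPKM in Myh9-deficient libraries, most of it from Cd79b at 31.1 ± 2.79 and 29.2 ± 1.17 FPKM. Cd72 rose from 4.16 ± 0.289 to 6.72 ± 0.229 FPKM and Cd79a, a chain of the B cell receptor, from 0.743 ± 0.199 to 1.52 ± 0.161 FPKM. The defining genes were at or near 0: Pax5 was at 0 in all controls and at most 0.0372 FPKM in Myh9-deficient libraries, and Ms4a1, which encodes CD20, was at most 0.0259 FPKM. Plasma cell genes moved in both directions, with 3 of 5 tested higher and 2 lower. Their sum was 103 to 104 FPKM in control and 125 to 131 FPKM in Myh9-deficient libraries, with Jchain, the joining chain of secreted IgM and IgA, at 30.4 ± 0.347 and 64 ± 3.63 FPKM. Xbp1, the factor of the secretory programme, fell from 63.2 ± 0.342 to 50.6 ± 1.65 FPKM, and Mzb1 rose from 4.58 ± 0.427 to 8.99 ± 0.487 FPKM.

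The macrophage and monocyte list summed to 424 to 463 FPKM in control libraries, and 171 to 187 FPKM was its range in Myh9-deficient ones, with 6 of 10 tested genes lower and 3 higher. Ly6c2 fell from 361 ± 18.9 to 131 ± 9.24 FPKM and Csf1r, the receptor of macrophage colony-stimulating factor, from 25.6 ± 1.17 to 8.7 ± 0.546 FPKM. Cd68, the next in level, was at 23.4 ± 0.943 and 20.4 ± 0.0653 FPKM. The 3 genes that rose were the chains of complement C1q, with C1qa from 1.04 ± 0.328 to 4.24 ± 0.54 FPKM and C1qb from 1.04 ± 0.111 to 3.9 ± 0.319 FPKM. These 3 moved in the direction of the class II chains and the other called genes of the list in the opposite one. T cell genes summed to 4.46 to 4.66 FPKM in control and 9.19 to 11.3 FPKM in Myh9-deficient libraries, with Lck, the T cell kinase, at 3.44 ± 0.0636 and 5.12 ± 1.19 FPKM, Cd3d at 0.141 ± 0.123 and 1.45 ± 0.17 FPKM and Cd5 at 0.445 ± 0.172 and 0.825 ± 0.188 FPKM. Other parts of the T cell receptor complex also had every Myh9-deficient library above every control, with Cd3g at 0.0495 ± 0.0297 and 0.654 ± 0.127 FPKM and Trac at 0.135 ± 0.0966 and 0.942 ± 0.124 FPKM. Cd3e was at 0 in every control library and had 14, 21 and 18 reads (0.183, 0.282 and 0.237 FPKM) in Myh9-deficient ones. Cd4 was at 0.311 ± 0.0373 and 0.826 ± 0.107 FPKM. With no filter the adjusted p was 0.00163 for Cd3d, 0.00215 for Cd3g, 0.00294 for Trac, 0.00363 for Cd3e and 0.00649 for Cd4. For Cd5 it was 0.132. Lck, the only gene of the list tested with the filter, was called higher (adjusted p = 0.0335), but not without it (0.0889). Cd8a had 2 reads in 1 control library and 0 in the other 5 libraries. The part of any of these cell types in the class II values was not tested.

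**Figure D5:**
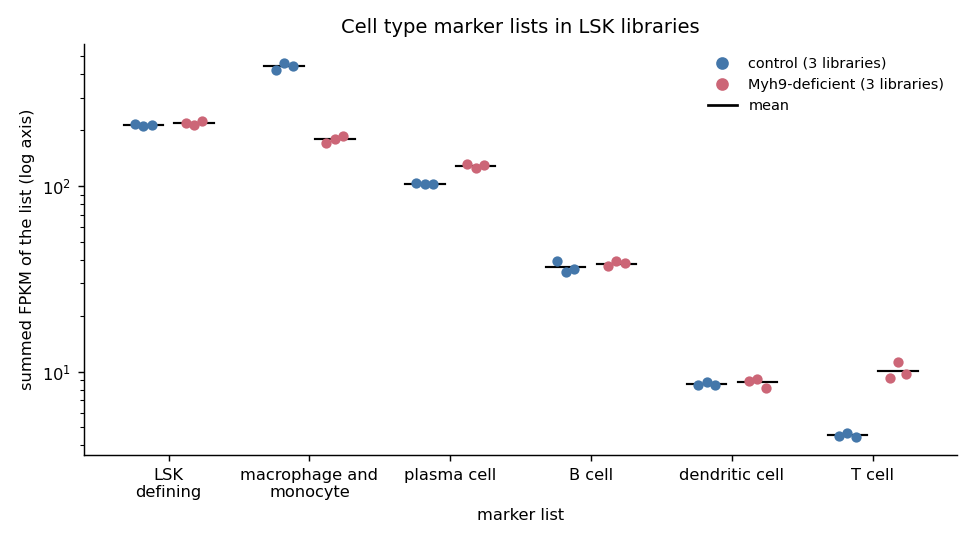
Summed FPKM (log axis) of 6 marker lists in each of 3 control and 3 Myh9-deficient LSK libraries, with 1 point per library and a bar at the group mean. The macrophage and monocyte sum is lower and the T cell sum higher in every Myh9-deficient library than in any control, while the dendritic cell and B cell sums overlap.

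Outside these lists, the genes most like the class II chains were sought by Pearson's r, over the 6 libraries, with the mean log2(FPKM + 1) of the 6 tested members. Of 7116 genes averaging 5 FPKM or more, 795 had an r above 0.95. Since these points share 2 groups, a gene with a steady difference between the groups scores high, and the order of the first ones carries little. The 5 highest, with r of 0.9985 to 0.9989, were Slc28a2, a nucleoside transporter, Selenow, a selenoprotein, the unnamed gene model Gm42047, Gzmb, the granzyme of killer lymphocytes, and Ptprcap, a partner of CD45. Gzmb was at 4.62, 5.18 and 5.33 FPKM in control and at 15.9, 16 and 15.9 FPKM in Myh9-deficient libraries (log2 fold change 1.49), and Slc28a2 at 13.6, 14.7 and 14.9 FPKM and at 30.1, 32.3 and 30.9 FPKM (log2 fold change 1.06).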

How the data were processed

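RNA of sorted LSK cells was sequenced in 6 libraries, 3 control and 3 Myh9-deficient. The authors deposited FPKM values with gene lengths for 54532 genes. The submitters' processing notes name HISAT2 2.0.5 and mm10, and the counting program is not given in the sources used here. FPKM times length gave whole reads (within 0.1 read) for 100% of values. The recovered reads gave the depth and served an alternative test (voom). Intervals from reads cover counting error only.

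Genes averaging 1 FPKM or more over all libraries (11552) entered a fit of log2(FPKM + 1) in limma 3.58.1 in R 4.3.3 (lmFit, eBayes with trend, two-sided), and adjusted p are Benjamini-Hochberg values over all of them. The code was tested on simulated data. The study calls its LSK cell sets independent without giving the animals behind each. The labels do not say that libraries of a group came from separate animals, so p-values measure the spread between these libraries, which may be technical. Ratios were compared by exact permutation tests. Symbols turned into dates in the table (11, among them March1 and March8) were restored by identifier. Promoter windows came from RefSeq (GRCm38.p6) and transcripts from GENCODE M21.

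The members and lists were chosen with earlier results of these data known. Named genes were Myh9, all members and other class II chains, Ctss, Ifi30 and the RFX genes, up to 6 called genes per direction of the processing and transcription lists (1 of which is counted but not reported here), 4 class I genes by size of change, the 3 most abundant genes of each cell type list and those at 0, tested genes between the members on chromosome 17, and the 5 genes most like the members. H2-D1, Ifngr1, Brd2, BC051537, Dexi, the remaining marker genes and the costimulation genes were named after their values were seen. The alternatives were another pseudocount, other filters, other scalings (median of ratios, quantile, TPM), no trend, voom, a replicate block and leaving out each library.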

Additional observations from a re-analysis of the deposited data

How the results depend on the processing

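H2-Ab1, H2-DMa and Cd74 kept their direction and their call in all 15 alternatives, and H2-Aa and H2-Eb1 in the 14 that tested them, with log2 fold changes of 1.61 to 1.79 (H2-Ab1), 0.70 to 0.77 (H2-DMa), 1.35 to 1.51 (Cd74), 1.89 to 3.07 (H2-Aa) and 2.0 to 3.09 (H2-Eb1). With 5 FPKM required on average, H2-Aa and H2-Eb1 were not tested, so 3 members were called higher, and 1 gene of the 3 pathway lists was called higher in place of 3. With FPKM + 1 in both terms, the log2 difference of the ratio of H2-Aa to H2-Ab1 was 0.31 in place of 1.30, since 1 is more than the control level of H2-Aa. H2-DMb1 ranged from 0.052 to 0.18, with adjusted p of 0.0431 to 0.556.

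Leaving out each library in turn gave 1784 to 2043 genes higher and 1758 to 2065 lower, 5 to 6 members higher, and 2 to 3 pathway list genes higher and 10 to 14 lower, with 10 lower without control replicate 1. The log2 differences of the ratios ranged from 1.08 to 1.42 (H2-Aa to H2-Ab1), -0.33 to -0.20 (Cd74 to H2-Ab1), 1.09 to 1.17 (H2-DMa to both beta chains) and 1.36 to 1.63 (Cd74 to Ciita). Libraries share replicate numbers. The correlation of deviations between same-numbered libraries was -0.00459, -0.0112 and -0.0262, so no shared deviation was seen. This cannot show whether same-numbered libraries were paired by litter or by processing. With the replicate block, 2063 genes were called higher and 2044 lower, 5 members higher, and 2 and 13 list genes higher and lower. No setting moved the median of all genes by more than 0.03 on the log2 scale. Depth limits Ciita, with at most 18 reads per library, and control H2-Aa and H2-Eb1, with 13 to 26 reads.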
